A study of Drosophila melanogaster with 3 samples.

Results

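The peaks described here are those on the fourth chromosome of *Drosophila melanogaster*, the smallest chromosome of the fly, in a map of where the tagged protein of the gene CG4820 was found on DNA. They were chosen by their chromosome alone, as every peak on chromosome 4 of the dm6 genome build in each of 5 peak lists. The fourth chromosome held 251 of the 26597 candidate peaks of replicate 1, 275 of 27004 in replicate 2 and 235 of 26145 in replicate 3. It held 186 of 21656 candidates of the pooled replicates and 20 of the 4876 peaks of the optimal list, the authors' list of reproducible peaks. The other 5 large arms (X, 2L, 2R, 3L and 3R) held the rest and are the comparison throughout.

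Binding was mapped by ChIP-seq, in which an antibody, here against GFP, pulls down a protein with its DNA and the DNA is sequenced. The samples were whole embryos. The embryos were 0 to 16 h old, of both sexes together, and carried CG4820 with green fluorescent protein at its C-terminal end. There were 3 biological replicates of 1 group, all from 1 transgenic fly line, so the spread between replicates does not cover other lines, and a whole embryo mixes all cell types. No read totals are given, so depth is unknown, and no control library or untagged line was analysed here.

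The fourth chromosome is known for a mixed kind of chromatin. Much of it carries the heterochromatin protein HP1a and methylated histone H3K9, as silent regions near centromeres do, and it is rich in transposon remnants such as INE-1, yet many of its genes are active in embryos. Its transcribed genes are also bound by POF, a protein that acts on this chromosome as a whole. In the reference sequence the fourth chromosome was 1.348 Mb long with 80 protein-coding genes, or 59.3 per Mb, against 105 per Mb on the other arms. Its median protein-coding gene spanned 10090 bp, against 2156 bp on the other arms. Annotated transposable elements covered 24.8% of the fourth chromosome and 5.74% of the other arms, and A+T made up 64.8% of it, against 57.8% of the other arms.

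The sequences below reach 50 bp to each side of the summits of the 8 highest optimal peaks of the fourth chromosome that lie outside untranslated regions (UTRs), from the RefSeq sequence of dm6, plus strand. They are shown beside the A+T content given further on, and capitals mark the longest run made only of A and T. They are named by the gene with the nearest transcription start site (TSS). Their positions are chr4:424763-424863 for lncRNA:CR43437, chr4:1027198-1027298 for PlexA, chr4:497854-497954 for zfh2, chr4:660042-660142 for gw, chr4:982933-983033 for fuss, chr4:807613-807713 for Sox102F, chr4:489478-489578 for Asator and chr4:404475-404575 for mir-9385.
lncRNA:CR43437: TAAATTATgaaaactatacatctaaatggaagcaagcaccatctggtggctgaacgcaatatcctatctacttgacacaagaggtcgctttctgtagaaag
PlexA: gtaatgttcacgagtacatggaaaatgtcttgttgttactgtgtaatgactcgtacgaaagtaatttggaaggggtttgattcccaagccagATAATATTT
zfh2: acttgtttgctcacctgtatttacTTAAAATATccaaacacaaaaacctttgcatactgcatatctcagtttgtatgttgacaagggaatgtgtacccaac
gw: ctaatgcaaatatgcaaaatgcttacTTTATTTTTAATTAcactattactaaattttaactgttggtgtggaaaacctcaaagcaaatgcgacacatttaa
fuss: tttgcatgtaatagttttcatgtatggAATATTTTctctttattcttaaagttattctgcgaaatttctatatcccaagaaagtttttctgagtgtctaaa
Sox102F: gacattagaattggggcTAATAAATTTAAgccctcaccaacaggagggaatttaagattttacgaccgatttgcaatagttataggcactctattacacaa
Asator: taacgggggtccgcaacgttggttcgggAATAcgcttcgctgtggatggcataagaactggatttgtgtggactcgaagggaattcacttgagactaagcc
mir-9385: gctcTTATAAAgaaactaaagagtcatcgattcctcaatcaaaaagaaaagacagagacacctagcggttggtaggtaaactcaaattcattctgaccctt
The capital runs were 4 to 14 bp long, and A+T made up 48.5% of the Asator window and 73.3% of the fuss window, the lowest and the highest of all 20 summits (that at Cals also had 73.3%).

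Candidate peaks were about as dense on the fourth chromosome as elsewhere, while high-signal peaks were sparse. The 3 replicates had 186, 204 and 174 candidates per Mb on the fourth chromosome, against 199, 202 and 195 per Mb on the other arms. The means were 188 ± 14.9 on the fourth chromosome and 199 ± 3.09 on the other arms (SD, n = 3 replicates). The difference was smaller than the spread between replicates on the fourth chromosome, with p = 0.5 in an exact two-sided permutation test over the 3 replicates. When each replicate was limited to its 4876 highest-signal peaks, the length of the optimal list, the fourth chromosome kept 24, 22 and 26 peaks. That is 17.8 ± 1.48 per Mb on the fourth chromosome, against 36.6 ± 0.0151 per Mb on the other arms (SD, n = 3). The cut fixes the total, so the SD on the other arms does not measure spread between replicates. The fourth chromosome was lower in 3 of 3 replicates by many times its spread, and the exact permutation test gave p = 0.25, the smallest that 3 replicates allow.

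The optimal list had 14.8 peaks per Mb on the fourth chromosome (95% Poisson interval 9.06 to 22.9), against 36.6 per Mb on the other arms (35.6 to 37.7). The ratio was 0.405 (95% exact interval 0.247 to 0.626). Among single arms, 2R was the lowest of the others with 32.8 per Mb and 2L the highest with 38.6 per Mb, so the fourth chromosome lay below each of them. In the pooled candidate list the ratio was 0.852 (0.733 to 0.984), and the 138 candidates per Mb of the fourth chromosome were below each other arm, of which 2R was the lowest with 146 per Mb. Counted over sequence not in lower case, the repeat marking of the reference, the pooled ratio was 0.958 (0.825 to 1.11) and the optimal ratio 0.455 (0.278 to 0.704). Lower case differs from annotated transposable elements. From position 1300001 to its end the fourth chromosome is 95.4% elements but 22.7% lower-case. These ratios therefore do not take out all elements.

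**Figure D1:**
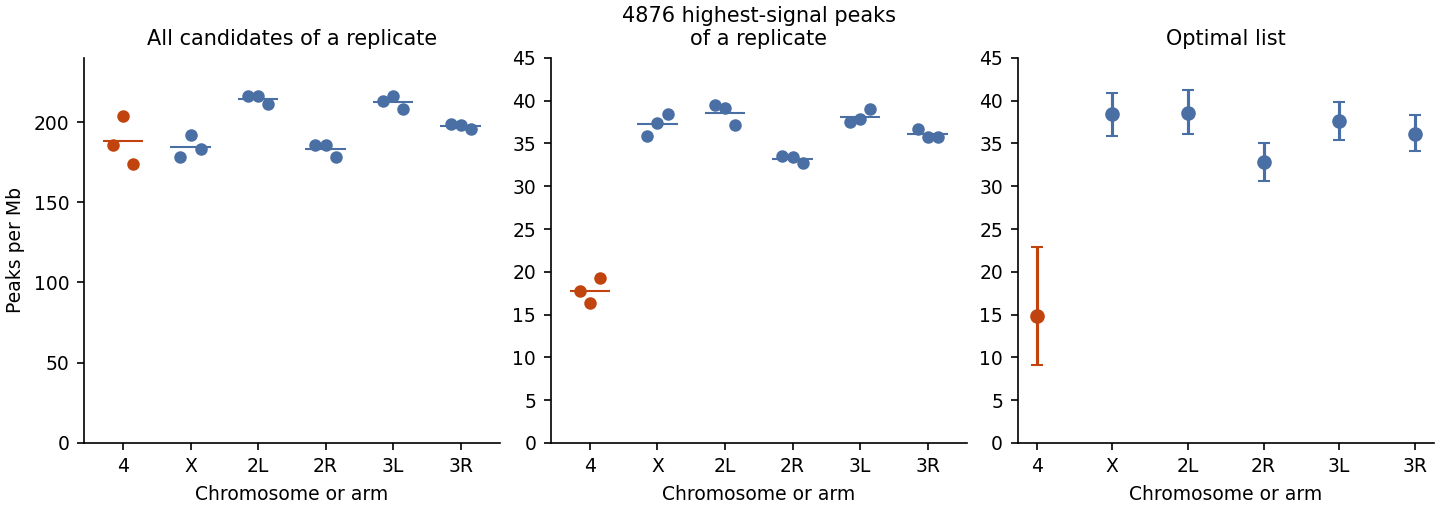
Peaks per Mb on the fourth chromosome (orange) and the other arms (blue); points are the 3 replicates with their mean as a line in the first 2 panels, and the optimal list with 95% Poisson intervals in the third. For all candidates the fourth chromosome (174 to 204 per Mb) lies near the other arms, within their range in replicates 1 and 2 and below each of them in replicate 3. It lies below them for the high-signal peaks (16.3 to 19.3 per Mb) and the optimal list (14.8 per Mb).

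The signal, the authors' enrichment value of a peak, was ranked only within a list. The optimal list is the 4876 pooled candidates of highest signal, down to 100.8. The density of that list, the share of candidates in it and the deciles below therefore restate 1 ranking and are not separate results. Over all pooled candidates 22.5% were in the optimal list. On the fourth chromosome it was 20 of 186, or 10.8% (95% Wilson interval 7.07 to 16), against 22.6% on the other arms. The highest decile of the pooled list by signal took 7 candidates of the fourth chromosome, or 3.76% of them, against 10.1% of those on the other arms. The next decile took 5.38% of the candidates of the fourth chromosome and 10% of those on the other arms, and the one after it took 10.8% against 9.99%. In the 3 replicate lists the median candidate of the fourth chromosome stood at percentile 45, 43.8 and 44.6 by signal, where 100 is the highest. On the other arms it stood at 50.1 in each replicate. Those arms hold about 99% of each list, so the ranking itself sets their median near the middle. The difference of -5.63 ± 0.623 (SD, n = 3) had the same sign in 3 of 3 replicates, with the smallest possible p of 0.25 in the exact permutation test. None of the 250 highest pooled candidates was on the fourth chromosome, whose best rank was 384. The fourth chromosome holds 0.859% of the pooled list, so few of any 250 of its candidates would lie there.

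**Figure D2:**
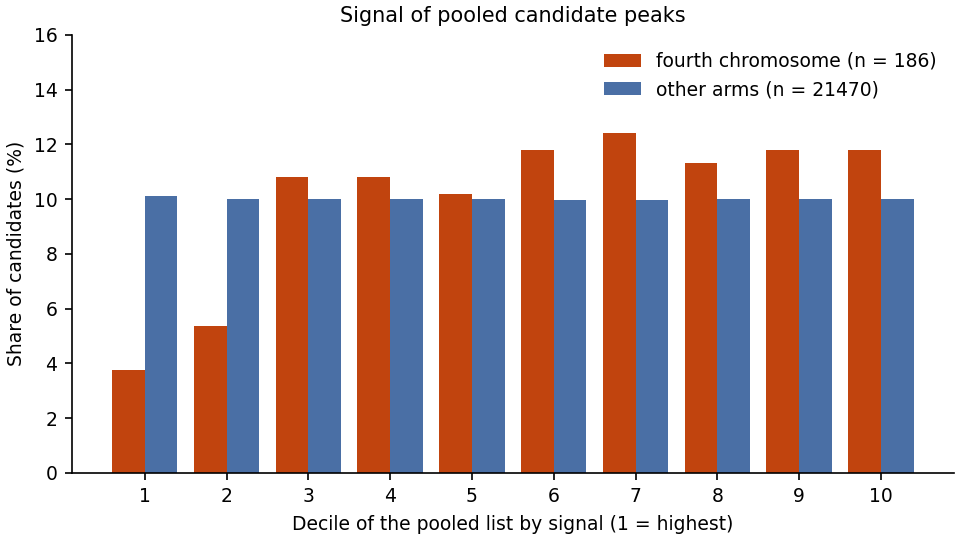
Share of the pooled candidates of the fourth chromosome (orange, n = 186) and of the other arms (blue, n = 21470) in each decile of the pooled list by signal. The fourth chromosome has 3.76% and 5.38% of its candidates in the first and second deciles, where the other arms have 10.1% and 10%.

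The highest peak of the fourth chromosome (dm6, 4, 424674 to 424940) had a signal of 496.8 in the optimal list. It was intergenic, 1254 bp upstream of the long non-coding RNA gene lncRNA:CR43437 (FBgn0263385). It ranked 485 in replicate 1, 377 in replicate 2 and 335 in replicate 3. The next peak (1113240 to 1113457, signal 388.9) lay in the 3' UTR of Cals (FBgn0039928), which encodes the synaptic membrane protein calsyntenin. The summit of this peak was 9629 bp downstream of the Cals TSS. Its interval also includes the annotated 3' end, at 1113317, of the transcription factor gene sv. This peak ranked 688, 592 and 632 in replicates 1, 2 and 3. The third (1027154 to 1027383, signal 366) lay 147 bp upstream of PlexA (FBgn0025741), the gene of a plexin receptor for semaphorins that steer axons. It ranked 671, 802 and 674. Each of these 3 peaks was thus at rank 802 or better in every replicate.

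Several peaks lay near genes of DNA-binding proteins and their partners. The peak 3906 bp upstream of zfh2 (FBgn0004607), a zinc finger homeodomain factor (497819 to 497945, signal 298.5), ranked 766 and 855 in replicates 1 and 2 and 2755 in replicate 3. The peak 4494 bp upstream of fuss (FBgn0039932), of the Ski/Sno family of signalling co-repressors (982905 to 983031, signal 257.9), ranked 1984, 1447 and 978. Among the first 7 peaks these 2 moved most, zfh2 being lowest in replicate 3 and fuss in replicate 1. The peak 316 bp upstream of a TSS of Sox102F (FBgn0039938), an HMG-box factor (807455 to 807870, signal 256.1, in an intron of the same gene), ranked 1291, 1350 and 1312 and moved least among them. The peak 340 bp upstream of pho (FBgn0002521; 1181760 to 1182175, signal 145.5), which encodes a DNA-binding member of the Polycomb group, ranked 2772, 2938 and 3931. Near ey (FBgn0005558), the Pax6 gene of eye development, 2 peaks were listed, 1 in an intron with a signal of 149.3 and 1 intergenic, 733 bp upstream, with a signal of 118.3.

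Other peaks close to a TSS were at genes of RNA silencing, of the ribosome and of other functions. The peak 109 bp upstream of a TSS of gw (FBgn0051992), whose protein works with Argonaute in silencing by microRNAs (659884 to 660299, signal 280.9, intronic), ranked 931, 1208 and 1372. The peak 118 bp upstream of RpS3A (FBgn0017545), a gene of the small ribosomal subunit (67117 to 67532, signal 156.1), ranked 3193, 1883 and 4684. A peak 172 bp upstream of CG46466 (663088 to 663503, signal 144.7) was also within 500 bp of a TSS of Slip1, and a peak 114 bp upstream of Rnf11, a RING finger gene, had a signal of 110.2. The remaining peaks were nearest to Asator, a kinase gene (signals 167.1 and 133.2), to the microRNA gene mir-9385 (164.7 and 140.5), and again to Sox102F (129.8) and zfh2 (105.3). The last was in the 5' UTR of myo, the gene of the TGF-beta ligand myoglianin (103.9).

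The lowest peak of the fourth chromosome inside the optimal list was that at myo, rank 4713. Just outside stood the candidates at Gyf (signal 99.96, rank 4942), CG11076 (99.76, rank 4955) and Rad23 (97.14, rank 5122). Next came those at lgs (95.18, rank 5254), which encodes a co-activator of Wnt signalling, and at PlexB (94.91, rank 5271). All 5 of these had their summit within 117 bp upstream of a TSS, and the one at CG11076 was also within 500 bp of a TSS of ATPsynbeta, a subunit gene of ATP synthase.

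Replicate agreement of the optimal peaks was measured by overlap of at least 1 bp with the 4876 highest-signal peaks of a replicate. Over the whole optimal list 72.9% were supported by every replicate. On the fourth chromosome 14 of 20, or 70% (Wilson 48.1 to 85.5), were supported by every replicate, close to the 72.9% of the other arms. Single replicates supported 86.7% ± 2.89 of the peaks of the fourth chromosome and 88.5% ± 1.15 of those on the other arms (SD, n = 3), a difference within the spread between replicates (exact permutation p = 0.5). All 20 overlapped some candidate of every replicate, as did 99.5% of the optimal peaks on the other arms. The optimal list was cut by the pooled signal of these same replicates, which favours high support on every arm. These shares are therefore read only beside those of the other arms. The 6 peaks short of full support were those at CG46466, Asator (133.2), ey (118.3) and Rnf11 with 2 replicates each, and zfh2 (105.3) and myo with 1 each. The CG46466 peak ranked 2591 and 2168 in replicates 1 and 2 but 6322 in replicate 3, and the zfh2 peak 7605 in replicate 1, 3781 in replicate 2 and 4996 in replicate 3. Summits lay within 100 bp of the replicate's own summit for 95%, 100% and 95% of the 20 peaks on the fourth chromosome, near the 96.5%, 97.6% and 96.3% on the other arms.

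**Figure D3:**
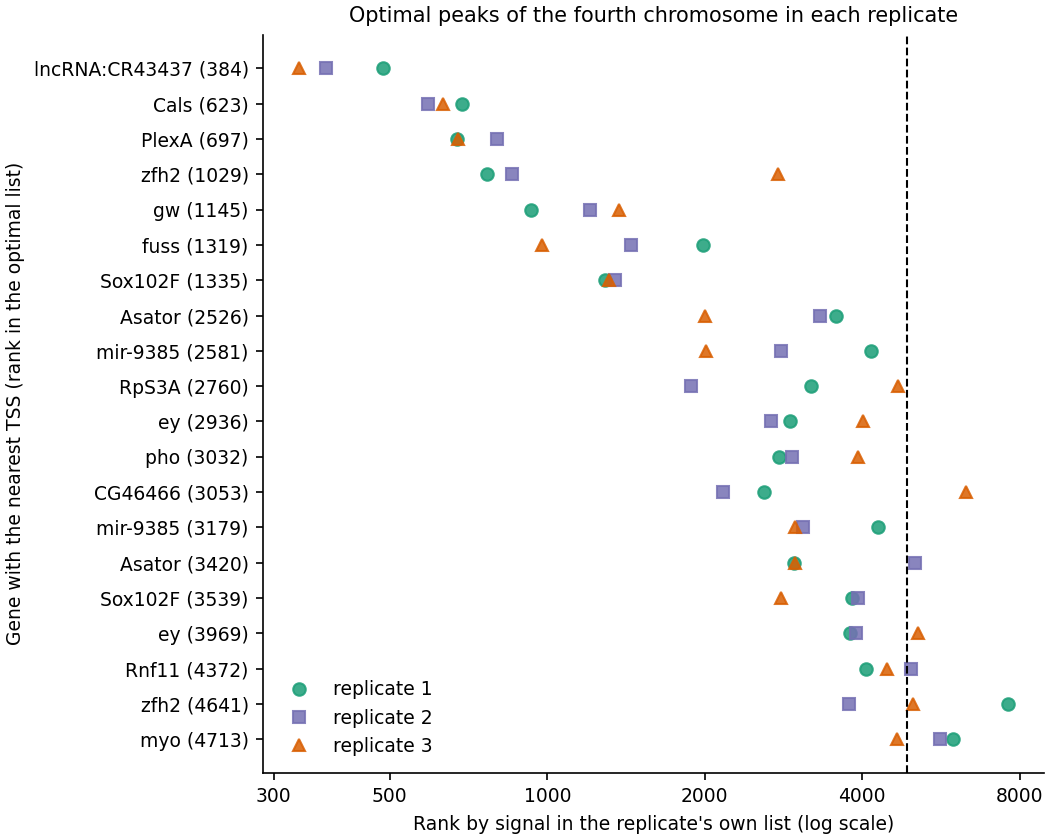
Rank by signal of the 20 optimal peaks of the fourth chromosome in the list of each replicate, on a log axis, ordered by optimal rank; the dashed line is rank 4876. The first 7 peaks stay at rank 2755 or better in every replicate, and the 6 peaks with a point to the right of the line are those without full support.

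Rank order held less well among the candidates of the fourth chromosome. Over its 20 optimal peaks Spearman's rho between replicates was 0.856 (1 and 2), 0.647 (1 and 3) and 0.656 (2 and 3), against 0.837, 0.792 and 0.814 over those of the other arms. Over the pooled candidates found in both replicates it was 0.663 (1 and 2, n = 111), 0.629 (1 and 3, n = 98) and 0.575 (2 and 3) on the fourth chromosome, against 0.808, 0.780 and 0.794 on the other arms. These describe peaks of shared libraries, and the lower signal of the fourth chromosome moves with them; its part in the lower values was not tested. Over all pooled candidates 54.1% were overlapped by a candidate of every replicate, with 86 of 186 or 46.2% (39.2 to 53.4) on the fourth chromosome and 54.2% on the other arms. Of the candidates so overlapped, 23.3% (15.6 to 33.2) were in the optimal list on the fourth chromosome and 41.5% on the other arms.

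Promoters, taken as 500 bp to each side of a TSS, held 47.2% of all optimal summits. On the fourth chromosome they held 7 of 20, or 35% (18.1 to 56.7), against 47.2% on the other arms, an interval too wide to separate the values. All 7 (64.6 to 100%) were upstream of the TSS, against 83.5% of promoter summits on the other arms. In the replicates' own 4876 highest peaks the promoter share was 51.2% ± 4.94 on the fourth chromosome and 47% ± 1.76 on the other arms (SD, n = 3, exact permutation p = 0.5). By location, 14 of the 20 optimal summits of the fourth chromosome were intergenic, or 70% (48.1 to 85.5), against 42% on the other arms. Pooled candidates had no such gap, with 34.9% (28.5 to 42) intergenic on the fourth chromosome and 35% on the other arms. Intergenic sequence makes up 22.8% of the fourth chromosome and 30.8% of the other arms. Introns held 4 of the optimal summits, or 20% (8.07 to 41.6), against 47.2% on the other arms. They held 36% of the pooled candidates, against 47.6%. Of the optimal summits, a 5' UTR held 1 (5%, against 6.34% on the other arms) and a 3' UTR held 1 (5%, against 1.32%). Coding sequence held none, against 0.391% on the other arms.

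Pooled candidates were divided in the same way into those at promoters and those away from them. Promoters held 76 of 186 candidates of the fourth chromosome, or 40.9% (34.1 to 48), against 31.4% on the other arms, although 10.2% of the fourth chromosome and 13.4% of the other arms lie within 500 bp of a TSS. Of these promoter candidates 7 of 76, or 9.21% (4.53 to 17.8), were optimal on the fourth chromosome, an interval below the 34% of the other arms. Away from promoters 11.8% (7.04 to 19.2) of the candidates were optimal on the fourth chromosome, an interval that includes the 17.4% of the other arms. On the fourth chromosome itself the intervals of these 2 shares overlap, and whether the gap to the other arms differs between promoters and other places was not tested. The median promoter candidate stood at percentile 57.3 by signal on the fourth chromosome and 64.4 on the other arms, and the median candidate away from promoters at 33.8 on the fourth chromosome and 43.9 on the other arms.

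Genes were counted in the same way. Of all protein-coding genes 19.9% had an optimal peak at a promoter and 44.9% a pooled candidate. Of the 80 on the fourth chromosome 8 had an optimal promoter peak, or 10% (5.15 to 18.5), against 19.9% on the other arms. With only the optimal peaks supported by replicates 2 and 3, whatever their support in replicate 1, it was 6.25% on the fourth chromosome and 16.1% on the other arms. A pooled candidate was at a promoter of 53 of the 80, or 66.2% (55.4 to 75.7), against 44.8% on the other arms. So the gene share of the fourth chromosome was below that of the other arms in the optimal list and above it among candidates. Protein-coding genes of the fourth chromosome have more annotated TSSs in the mean, 1.77 each against 1.4 on the other arms. The median is 1 on both. The part of the number of TSSs in the candidate share was not tested. In the replicates' 4876 highest peaks, 18.8%, 13.8% and 13.8% of the genes on the fourth chromosome had a promoter peak, against 20.1%, 20% and 18.5% on the other arms (exact permutation p = 0.25, lower in 3 of 3). The 8 genes were PlexA, gw, Sox102F, RpS3A, pho, CG46466, Slip1 and Rnf11.

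By gene list, optimal promoter peaks were at 2 of 17 genes of transcription and chromatin factors (pho and Sox102F), with candidates at 9 of them. They were at 3 of 13 housekeeping and metabolic genes (RpS3A, gw and Slip1), with candidates at 11, and at 1 of 9 signalling genes (PlexA), with candidates at 7. Of 10 neuronal and synaptic genes and 3 muscle and lipid transport genes none had an optimal promoter peak, while 6 and 2 of them had a candidate. The absence among neuronal genes depends on PlexA, a receptor gene of axon steering, being counted as signalling. Listed genes with an optimal summit inside them were ey and Sox102F (transcription), myo (signalling), Cals (neuronal) and gw (housekeeping). Of all 80 protein-coding genes of the fourth chromosome, 8 had an optimal promoter peak, 53 a promoter candidate and 6 an optimal summit inside. The lists are small and no difference between them is drawn.

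Coding sequence held 31 of the 186 pooled candidates of the fourth chromosome, or 16.7% (12 to 22.7), against 5.9% on the other arms, although coding sequence takes up 19.7% of the fourth chromosome and 17% of the other arms. Their median percentile by signal was 28.1 on the fourth chromosome and 23.8 on the other arms. On the fourth chromosome the best of them ranked 7923. A candidate of every replicate overlapped 4 of the 31, or 12.9% (5.13 to 28.9), against 46.2% of all pooled candidates of the fourth chromosome. Taf3 had 3 of the 31, and Arf4, CG11155, Eph, Gat, bt and fuss had 2 each. These counts are not scaled by coding length, which among these genes runs from 540 bp in Arf4 to 26908 bp in bt. The intervals of the 2 at Arf4 overlap each other.

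Annotated transposable elements held 3 of the 20 optimal summits of the fourth chromosome, or 15% (5.24 to 36), against 0.247% on the other arms. All 3 were INE-1 elements, in an intron of ey (signal 149.3), 6849 bp from a TSS of Sox102F (129.8) and 3187 bp upstream of zfh2 (105.3). Of the pooled candidates 37 of 186, or 19.9% (14.8 to 26.2), lay in an element on the fourth chromosome, against 0.489% on the other arms. Elements cover 24.8% of the fourth chromosome, which the interval of the candidate share includes. On the other arms 0.489% of candidates lay in the 5.74% of sequence that is elements. INE-1 made up 24 of these 37, or 64.9% (48.8 to 78.2), against 60.8% of the annotated elements of the fourth chromosome by number and 29.1% by length. Candidates in elements were optimal in 8.11% (2.8 to 21.3) and those outside in 11.4% (7.25 to 17.5), and they were overlapped by a candidate of every replicate in 37.8% (24.1 to 53.9) and 48.3% (40.4 to 56.3). How well reads can be placed in such copies was not measured here.

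Along the chromosome the optimal peaks were uneven. The 100 kb from 400001 to 500000 held 7 of the 20, near mir-9385, lncRNA:CR43437, Asator and zfh2, and that from 600001 to 700000 held 4, near gw, CG46466, ey and myo. Of 13 full bins of this size 4 had none, or 30.8%, against 23.1% of bins on the other arms. The last 48 kb, of which 95.4% is annotated as transposable elements, had no pooled candidate. Neighbouring optimal peaks were 31987 bp apart in the median, against 9820 bp on the other arms.

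Stretches of the other arms as long as the fourth chromosome give a further comparison, chosen after the data were seen. Of 95 such windows, 12 had at least its 27.8% of lower-case repeat sequence, and these held 0 to 11 optimal peaks and 2 to 98 pooled candidates. The fourth chromosome, with 20 and 186, lay above all 12. Their median count of protein-coding genes was 6.5, against 80 on the fourth chromosome. The other 83 windows held 21 to 91 optimal peaks and 129 to 425 candidates, so the fourth chromosome was below all of them in optimal peaks and inside their range in candidates. Of the candidates, 10.8% were optimal on the fourth chromosome, against 8.51% over the 12 windows and 22.9% over the other 83. Lower-case sequence and gene content move together in these windows, which were split by lower-case sequence and not by annotated elements. Elements cover 24.8% of the fourth chromosome. Among the 83, the 2R window from 5392525 had 28.3% elements, 89 protein-coding genes, 24 optimal peaks and 168 candidates. Among the 12, the windows from 21570097 on X and on 2L were nearest to that share, with 24.2% and 24% elements. The X window had 49 such genes, 5 optimal peaks and 44 candidates, and the 2L window 50, 11 and 98. Also among the 12, the 2R window from 4044394 had 44% elements, 28 such genes and 6 optimal peaks. The 3L window from 22918228 had 44.9%, 20 and 0. The part of repeats and of genes in the counts was not tested.

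**Figure D4:**
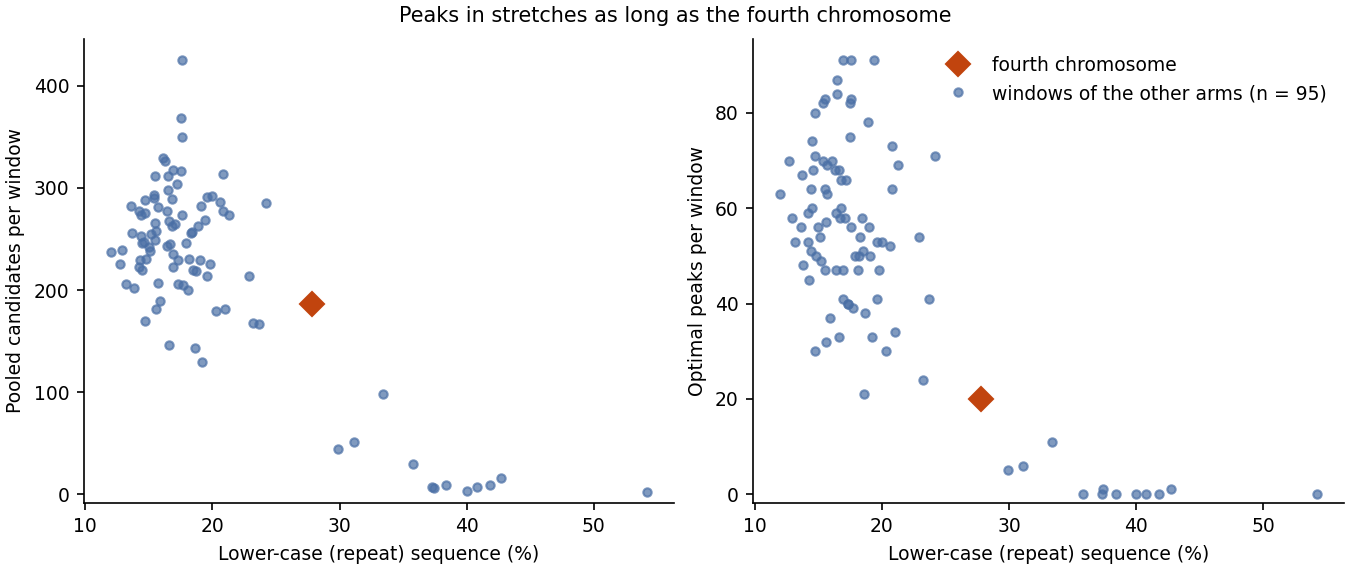
Pooled candidates (left) and optimal peaks (right) on the fourth chromosome (orange diamond) and in 95 windows of the same length on the other arms (blue), against the share of lower-case repeat sequence. The fourth chromosome (27.8% lower-case, 186 candidates, 20 optimal peaks) lies between the windows with more lower-case sequence and those with less in optimal peaks. In candidates it lies inside the range of those with less.

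A+T content was compared at the summits and around them. On the fourth chromosome the median A+T content within 50 bp of the optimal summits was 63.9%, against 68.3% on the other arms. This gap depended on the window, since within 100 bp of the summit the median was 65.4% on the fourth chromosome and 65.7% on the other arms. At 300 bp to each side it was 67.1% on the fourth chromosome and 55.4% on the other arms. The summit was richer in A+T than its flanks for 6 of 20 peaks on the fourth chromosome, or 30% (14.5 to 51.9), and for 82.9% on the other arms. Pooled candidates gave 35.5% (29 to 42.6) on the fourth chromosome and 62.7% on the other arms. The 264 optimal peaks of the other arms whose flanks were at least as A+T-rich as the median flank of the fourth chromosome gave 28% (23 to 33.7), near the fourth chromosome. The 3076 pooled candidates of the other arms picked in the same way gave 20.1% (18.7 to 21.6), below the fourth chromosome. Being picked for rich flanks, they are set towards a summit poorer than its flanks. The part of the A+T-rich surroundings in the difference was not tested further.

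**Figure D5:**
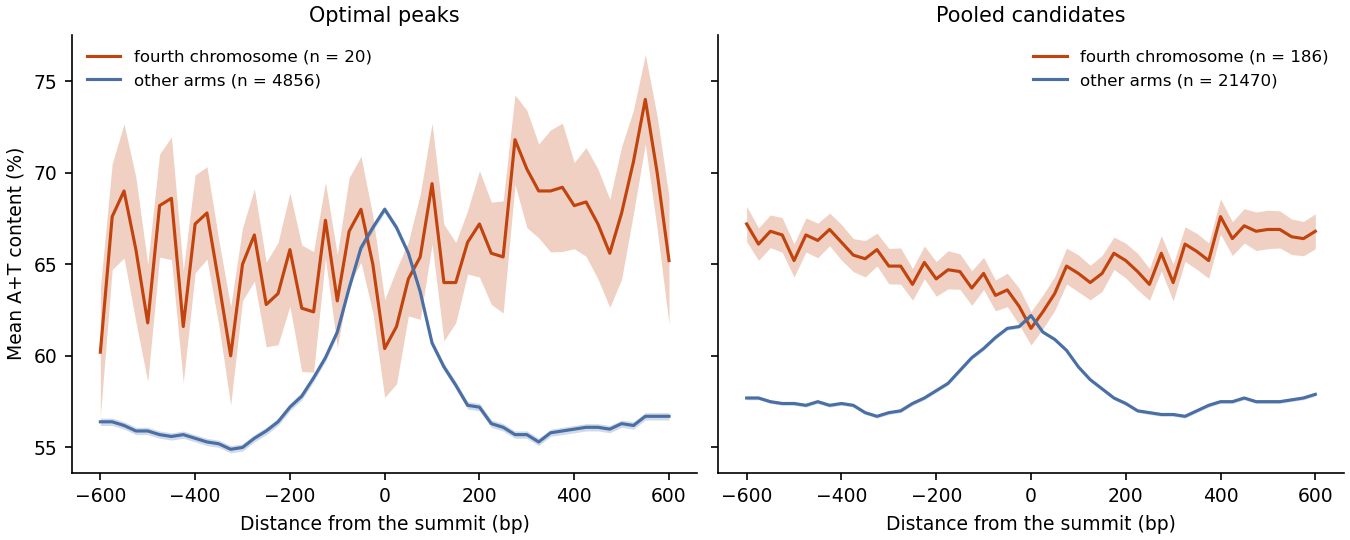
Mean A+T content in 25 bp steps by distance from the summit, with the standard error over peaks as a band, for optimal peaks (left) and pooled candidates (right) on the fourth chromosome (orange) and the other arms (blue). The other arms show a rise to the summit from flanks near 55%, and the fourth chromosome has no maximum there.

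Known motifs were sought on both strands within 50 bp of each optimal summit. The TATA box word TATAAA was in 2 of the 20 windows on the fourth chromosome, or 10%, against 23% on the other arms. Of all windows of that length it is in 21.6% on the fourth chromosome and 11.6% on the other arms. The core CGATA of the insulator protein BEAF-32, which is part of the longer DRE word, was in 3 windows (15%) on the fourth chromosome and in 15.2% on the other arms. It is in 13.1% of all windows on the fourth chromosome and 11.3% on the other arms. The DRE word TATCGATA, bound by the promoter factor DREF, was in 1 window (5%), that upstream of ey, against 1.73% on the other arms. The homeodomain core TAATTA was in 2 windows (10%), those at Cals and gw, against 9.86% on the other arms. Of the words found in 1 window (5%) of the fourth chromosome, GAGAG was in 8.75% of windows on the other arms, the CTCF core AGNNGGCGC in 2.06%, the Su(Hw) core TGCATANTT in 1.73% and motif 7 in 2.29%. The Zelda word CAGGTA, the M1BP core GGTCACAC and motif 6 were in no window of the fourth chromosome, against 2.02%, 0.762% and 0.329% of those on the other arms. Counts this small do not separate the fourth chromosome from the other arms for any of them.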

How the data were processed

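The authors deposited candidate peaks for each replicate and for the pooled replicates, and an optimal list, in the builds dm3 and dm6. Per the README files deposited with them, the optimal list was made from the others by rank agreement between replicates, the irreproducible discovery rate (IDR). Aligner, caller and threshold were not given in the sources used here. Deposited signal is an enrichment value on the scale of its own list and was only ranked within a list. The −log10 of the q-value, as deposited, takes 1 value in the optimal list and was not used.

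Summits came from the offset column, and genes and transposable elements from Ensembl (BDGP6.54, release 115). Sequence was RefSeq's of the same assembly, in which 99.3% of 298 start codons on the fourth chromosome read ATG. The dm3 lists were used only for shares of a list. Intervals are 95% Poisson, exact or Wilson intervals and cover counting error only. Tests over the 3 replicates were exact two-sided sign-flip permutation tests, whose smallest p is 0.25. The optimal list, made once from all replicates, was not tested.

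Named were all optimal peaks of the fourth chromosome, the 5 highest candidates outside the list and list members with an optimal promoter peak. Coding candidates by gene were named after their values were seen. Members, gene lists and motifs were chosen with earlier results of these data known. The homeodomain core, the windows split by lower-case sequence and the A+T-rich flank comparison were added after seeing the data. Alternatives were other overlap rules, promoter distances, windows, denominators and lists. Each replicate in turn was also not asked for support of the optimal peaks, or was left out of the mean candidate ratio. Scripts were tested on simulated data. The software was Python 3.11.15 with SciPy 1.17.1, pandas 2.3.3, NumPy 2.4.6 and matplotlib 3.10.9.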

Additional observations from a re-analysis of the deposited data

How the results depend on the processing

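Of 61 alternatives to 9 results, 45 stayed within the interval of the value reported and reversed no difference whose interval left out the other arms. Among the 45 is the percentile by signal in the pooled list, which repeats the reported value by construction. The rest are given here, with those that changed sides relative to the other arms. Among only the optimal peaks supported by both replicates of a pair, the optimal density ratio ranged from 0.358 to 0.412. The optimal list itself, made from all 3 replicates, was not remade without any of them. The ratio was 0.283 above the median signal of the list and 0.399 by dm3 shares. Among these alternatives it turned only against windows of the other arms with at least as much lower-case sequence, which hold few genes. There it was 10 (5.24 to 18.9). The candidate ratio was 1.01 in replicate 2, and 0.486, 0.446 and 0.527 in the highest peaks of replicates 1, 2 and 3. The share of candidates in the optimal list was 100% in the first and second deciles by signal and 0% below the third decile, on both the fourth chromosome and the other arms, by the construction of that list. Full support was 100% when any candidate counted (other arms 99.5%). Its small gap to the other arms (70% against 72.9%) turned with summits within 100 bp (70% against 65.1%). The gap also turned with overlap of 50% of both intervals (60% against 59.5%) and with support asked of replicates 1 and 3 only (80% against 78.7%). The median percentile of the optimal peaks, 41.6 against 50.1 on the other arms, was 34 to 50.3 among those supported by each pair of replicates. The 50.3 was for replicates 2 and 3, against 50 on the other arms. The gene share was 66.2% with candidates and 6.25% to 8.75% with the optimal peaks supported by each pair of replicates. The A+T content was 60.8% over 25 bp to each side, against 68.6% on the other arms, and 65.4% over 100 bp to each side, against 65.7%. In the flanks it was 67.1% and over all of the fourth chromosome 64.8%, each above the other arms, and it was 63.9% against 63.4% for peaks with A+T-rich flanks. Lower-case sequence held 25% of optimal summits on the fourth chromosome and 23% on the other arms. It was 10% against 10.5% when over 50% of the window, and 5% against 1.01% when over 50% of the interval, had to be lower-case. With 20 optimal peaks the intervals are wide, depth is unknown, and 3 replicates of 1 line cannot reach a p below 0.25.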
